A study of Mus musculus with 148 samples.

Results

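Il1rapl1, Gabra3, Atp2b3, Maob, L1cam and Efhc2 are 6 X-linked genes best known from the nervous system or from cilia, followed here in mouse embryonic stem cells (mESC) in which Xist was switched on. They were chosen by name and are 6 of the 258 genes in the 6-day table. 5 of them, all but Maob, are also among the 464 genes in the table of a reciprocal line, C7H8. Female mammals shut down 1 of their X chromosomes through Xist, a long RNA that coats the chromosome it is made from and recruits proteins that stop transcription and modify chromatin. Its A-repeat is known to bind Spen, and its B-repeat and C-repeat region to bring in Polycomb complexes through hnRNPK. The genes were picked as mostly weakly expressed and linked to the brain.

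Il1rapl1 encodes a synaptic adhesion protein related to the interleukin receptor accessory protein, and L1cam an adhesion molecule of growing axons. Gabra3 encodes an alpha subunit of the GABA-A receptor, and Atp2b3 a plasma membrane pump that expels calcium. Maob encodes a mitochondrial enzyme that breaks down dopamine and other amines. Efhc2 encodes an EF-hand protein of ciliary microtubules, which is not specific to neurons.

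The study sequenced chromatin-associated RNA of female 129S X Cast cells and reported, for each gene and library, the share of allele-specific reads from the X chromosome that carries the inducible Xist (Xi). This allelic ratio, Xi/(Xi+Xa), is 0.5 where both alleles give equal reads and 0 where only the other chromosome (Xa) gives reads. In iXist-ChrX a TetOn promoter replaced the Xist promoter on the 129S allele, so Xi is 129S, and in C7H8 Xi is Cast. 28 of the 148 samples of the series were used.

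The iXist-ChrX line was studied with full-length Xist (WT), without the A-repeat (XistDelA) and without the PID region, in the B-repeat and C-repeat part of the RNA (XistDelPID). All carry the TetOn promoter and each deletion is 1 clone, so clone and deletion cannot be told apart. Each of the 3 lines was grown without doxycycline (NoDox) or with it (Dox) for 6 days, with 3 libraries per group in differentiating culture, after withdrawal of LIF, and 1 library per group in undifferentiated culture in ES medium. C7H8 had 2 NoDox libraries and 2 libraries given doxycycline for 24 hours, all undifferentiated. The tables used here give ratios without read counts, and their depth is unknown. A lower ratio in such bulk samples cannot tell fewer cells with an active Xi allele from less RNA of that allele per cell.

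The label of stem cells could be held against X-linked genes only. Of 4 such genes known to be active in stem cells, Nr0b1 was listed at 26.6 RPKM, a read density scaled for gene length and library size, Zfx at 25.8 and Hprt at 54.1, while Rhox5 was not listed. The table gives 1 RPKM per gene without naming its library. On that scale Il1rapl1 stood at 0, Maob at 0.165, Gabra3 at 0.431, Atp2b3 at 0.580, L1cam at 1.85 and Efhc2 at 2.38, against a median of 17.2 over the 258 genes. Counted from the lowest, none of the 6 ranked above 33 of 258, the place of Efhc2. Il1rapl1 had a ratio in every library all the same.

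The 6 genes lie in separate stretches of the X chromosome of mm10, between 15.3 and 86.6 Mb from Xist. Il1rapl1 (chrX:86747242-88115623, minus strand) spans 1368 kb and is the second longest of the 258 genes, whose median span is 26.2 kb. Gabra3 (chrX:72432676-72656246, minus strand), Atp2b3 (chrX:73503086-73573270, plus strand) and L1cam (chrX:73853780-73880834, minus strand) fall within 2 Mb of each other. Maob (chrX:16709281-16817366, minus strand) and Efhc2 (chrX:17132049-17319368, minus strand) are neighbours in the table, 315 kb apart. On the same strand, RefSeq places 4 other genes within Il1rapl1, 2 microRNA genes within Gabra3 and none within the other 4. Reads of these same-strand genes could count toward Il1rapl1 and Gabra3. On the opposite strand, 1 gene overlaps Il1rapl1, 2 overlap Gabra3 and 2 overlap Efhc2.

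The lines differ in which part of Xist is missing, and the target sites of the guides listed for the 2 deletions are printed to show where each cut was aimed. Each guide matched the assembled chromosomes of GRCm38, the build behind mm10, exactly and once, on the minus strand from which Xist is transcribed. Guide bases are in lower case and the PAM in capitals.
XistDelA guide site, chrX:103483234-103483253: gatcagttaaaggcgtgcaaCGG
XistDelPID guide site, chrX:103480607-103480626: ttgaggttctataccagttcAGG
The XistDelA guide bases lie just upstream of the annotated 5′ end of Xist, whereas the XistDelPID site lies in exon 1, 2607 bases into the RNA.

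Before induction the 6 genes were not alike in how their 2 alleles contributed. Over the 3 lines in differentiating culture, the mean NoDox ratio of Il1rapl1 exceeded 0.5 by 0.380 (SE 0.0485, adjusted p = 8.08e-06 by limma, as for all adjusted p values here) and that of Efhc2 by 0.341 (SE 0.0392, adjusted p = 2.69e-06). Gabra3 was above it by 0.158 (SE 0.0298, adjusted p = 0.000350) and Maob by 0.141 (SE 0.0237, adjusted p = 0.000122). These 4 genes were therefore read mostly from the 129S allele, and 39.5% of all 258 genes were called above 0.5 and 21.3% below. Atp2b3 differed from 0.5 by -0.0571 (SE 0.0207, adjusted p = 0.0265) and L1cam by -0.0505 (adjusted p = 0.117). The call of Atp2b3 was lost without replicate 2 (adjusted p = 0.154) or replicate 3 (0.136), on a logit scale (0.356) and in each line on its own (0.0788 in WT, 0.0530 in XistDelA and 0.389 in XistDelPID), and L1cam was called without replicate 2, at -0.0841 (adjusted p = 0.00160). In XistDelPID on its own, the balances of Il1rapl1 and Maob missed the threshold (adjusted p = 0.0654 and 0.0669), as did that of Gabra3 in XistDelA (0.0727).

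The reciprocal C7H8 line puts the inducible Xist on the other strain's chromosome, and the 129S shares of both lines are set side by side without a test. Clone and culture differ as well, since C7H8 is undifferentiated and 9 of the 12 iXist-ChrX libraries are differentiating. The 129S share of Il1rapl1 was 99.3% and 99.4% in the 2 NoDox libraries of C7H8, and in the 12 NoDox libraries of iXist-ChrX it ran from 61.4% through a median of 87.7% to 99.0%. For Efhc2 it was 86.6% and 88.8% in C7H8 and 75.0%, 83.8% and 92.1% (lowest, median and highest) in iXist-ChrX. Gabra3 gave 78.1% and 79.0% in C7H8 and 58.5%, 65.0% and 79.4% in iXist-ChrX. For these 3 genes the same strain's allele prevailed in both lines. Atp2b3 had a 129S share of 54.2% and 63.3% in C7H8 and 35.7%, 42.6% and 50.5% in iXist-ChrX, so the allele with fewer reads at the median differed between the lines. L1cam had 45.0% and 50.0% in C7H8 and 32.5%, 44.7% and 66.7% in iXist-ChrX, and Maob, measured in iXist-ChrX alone, 51.6%, 63.9% and 71.9%. Of the 254 genes in both tables, 18 (7.09%) were above 60% in both lines, among them Il1rapl1, Efhc2 and Gabra3, and 4 (1.57%) were above 80%, among them Il1rapl1 and Efhc2. The limits of 60% and 80% were chosen after the values were seen.

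**Figure D1:**
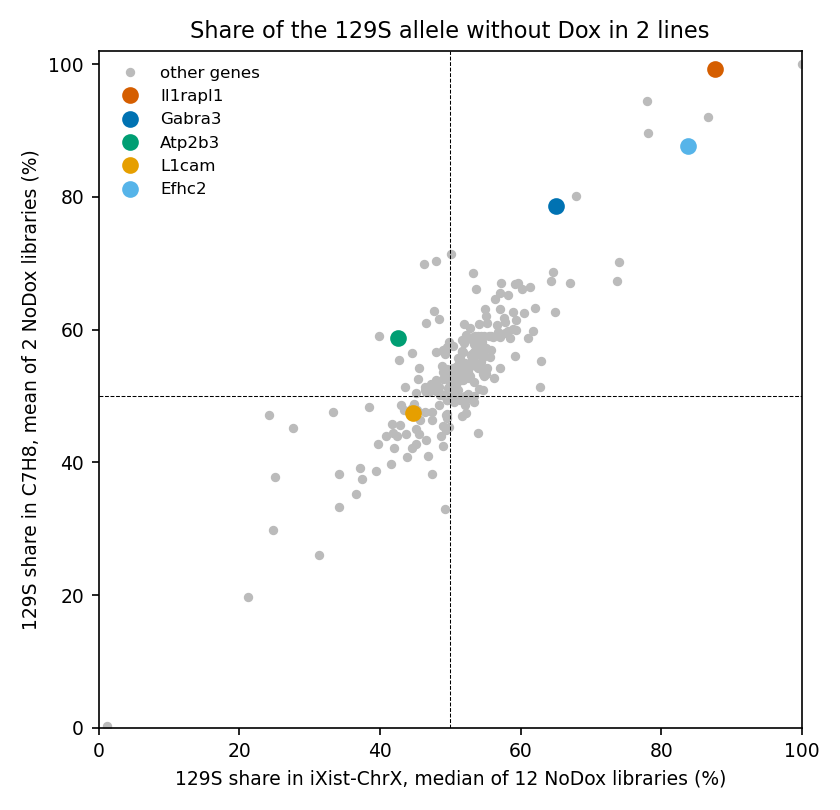
Share of allele-specific reads from the 129S allele without doxycycline (%), for each of the 254 genes in both tables except Xist: iXist-ChrX (median of 12 libraries, horizontal) against C7H8 (mean of 2 libraries, vertical). Il1rapl1, Efhc2 and Gabra3 sit in the upper right, at 87.7% and 99.3%, 83.8% and 87.7%, and 65.0% and 78.5%, and dashed lines mark equal shares.

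The first question is how far full-length Xist silences these genes in 6 days of differentiation, measured as the difference of the group means, Dox minus NoDox. All 6 fell, against 97.7% of the 258 genes called. Their median change was -0.558, against -0.408 over all genes. In the study's terms, a change below -0.2 is high silencing, which all 6 reached and 96.1% of all genes did.

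In WT, the adhesion gene Il1rapl1 had NoDox ratios of 0.973, 0.910 and 0.928 in replicates 1 to 3, and Dox ratios of 0.541, 0.0824 and 0.0569. Replicate 1 with doxycycline still took most of its reads from Xi where the others took few, and still lay below every NoDox library. L1cam had NoDox ratios of 0.395, 0.457 and 0.447, and Dox ratios of 0.113, 0.00926 and 0.0214. The GABA-A receptor gene Gabra3 had 0.585, 0.618 and 0.713 without doxycycline and 0.0138, 0.0169 and 0.0139 with it. Its Dox libraries hardly differed, and at the group means the Xi reads fell from 1.77 to 0.0151 per Xa read. The calcium pump gene Atp2b3 had NoDox ratios of 0.505, 0.415 and 0.405, and Dox ratios of 0.0513, 0 and 0.0455. Maob had 0.553, 0.644 and 0.589 without doxycycline and 0.0417, 0.176 and 0.0714 with it. The ciliary gene Efhc2 had NoDox ratios of 0.921, 0.895 and 0.884, and Dox ratios of 0.496, 0.227 and 0.125. For each of the 6, the Dox libraries all lay beneath the NoDox ones, which held for 97.3% of all genes.

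Il1rapl1 changed most of all 258 genes, by -0.710 (SE 0.119, adjusted p = 3.43e-05), and it started from a mean of 0.937 ± 0.0322 (SD, n = 3). Gabra3 ranked 3rd from the lowest at -0.624 (SE 0.0731, adjusted p = 6.78e-07) and Efhc2 4th at -0.618 (SE 0.0960, adjusted p = 1.60e-05). These ranks are on the ratio scale, where a gene that starts high has further to fall. On a logit scale, counted from the lowest, Gabra3 ranked 2nd, Il1rapl1 3rd and Efhc2 40th. After induction Efhc2 kept a mean of 0.282 ± 0.192 (SD, n = 3), the 12th highest of the 258 genes, and Il1rapl1 0.227 ± 0.272, the 21st highest. The median over all genes was 0.0954. The place of Il1rapl1 rests on replicate 1, without which its mean was 0.0696, the 156th highest, and below the median of 0.0839 over all genes. Efhc2 without replicate 1 had a mean of 0.176, the 38th highest. Gabra3 kept 0.0149 ± 0.00179, the 248th highest. Maob, at -0.499 (SE 0.0580, adjusted p = 6.21e-07), Atp2b3, at -0.409 (SE 0.0507, adjusted p = 1.29e-06), and L1cam, at -0.385 (SE 0.0650, adjusted p = 3.75e-05), lay closer to the middle of the table, at ranks 25, 127 and 166.

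**Figure D2:**
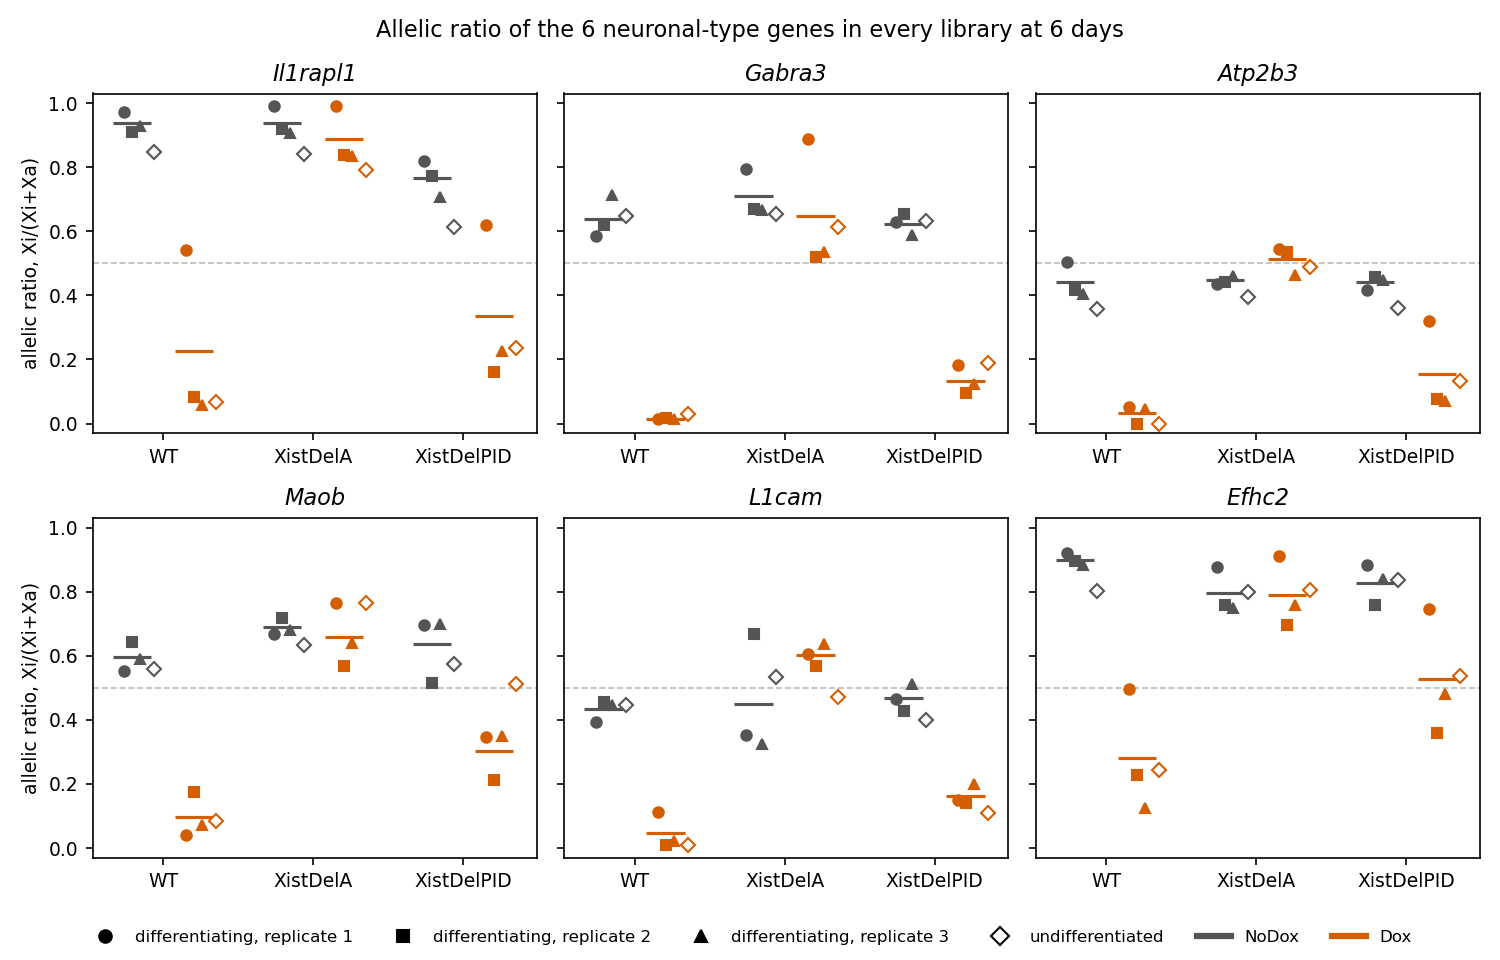
Allelic ratio, Xi/(Xi+Xa), of each of the 6 genes in the 24 libraries at 6 days: filled symbols are differentiating replicates 1 to 3, horizontal bars their means, open diamonds the single undifferentiated libraries, grey NoDox and orange Dox. In WT and XistDelPID the differentiating Dox libraries of each gene all lie beneath its NoDox ones. In XistDelA the groups overlap for 5 genes and lie apart, with Dox above, for Atp2b3, as for 8 of all 258.

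The second question is whether the 6 genes can be silenced by Xist that lacks the A-repeat. None was called silenced in XistDelA by limma, where 3 of 258 genes were (1.16%), and at an unadjusted p under 0.05 there were 20 genes lower and 3 higher, L1cam among the latter. The median change of the 6 was -0.0181, against -0.00642 over all genes. Il1rapl1 and Gabra3 had changes below -0.05, the study's limit for weak or no silencing, as had 10.9% of all genes. Neither did without replicate 2, at -0.0354 and -0.0173, or without replicate 3, at -0.0399 and -0.0279, and Gabra3 was at -0.140 without replicate 1 (adjusted p = 0.0628).

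Without the A-repeat, Il1rapl1 had NoDox ratios of 0.990, 0.918 and 0.906 and Dox ratios of 0.990, 0.838 and 0.835. L1cam had 0.353, 0.667 and 0.325 without doxycycline and 0.607, 0.568 and 0.636 with it. Replicate 2 of the L1cam NoDox libraries stood far above the others, and the SD of that group, 0.190, was the largest of all 258 genes. Gabra3 had NoDox ratios of 0.794, 0.671 and 0.665 and Dox ratios of 0.889, 0.520 and 0.536. Atp2b3 had 0.437, 0.442 and 0.462 without doxycycline and 0.544, 0.537 and 0.463 with it. The Atp2b3 groups did not overlap, with Dox the higher by a narrow margin, as in 8 of all 258 genes. Atp2b3 was the only one of the 6 whose groups lay apart. In 10.5% of all genes, and in none of the 6, the Dox libraries of XistDelA all lay beneath the NoDox ones. Maob had NoDox ratios of 0.667, 0.719 and 0.681 and Dox ratios of 0.765, 0.569 and 0.641. Efhc2 had 0.877, 0.757 and 0.750 without doxycycline and 0.911, 0.697 and 0.760 with it. For both, the highest and the lowest of the 6 libraries were Dox libraries.

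The differences in XistDelA were -0.0501 for Il1rapl1, -0.0617 for Gabra3, 0.0681 for Atp2b3, -0.0306 for Maob and -0.00553 for Efhc2, each with an adjusted p of 0.974. L1cam had the highest difference of all 258 genes on the ratio scale, 0.155 (SE 0.0650, adjusted p = 0.441). Replicate 2 lowered that value, and without it the difference was 0.283 (adjusted p = 0.00489). Without replicate 3 it was 0.0776. Also without replicate 2, Maob stood at 0.0293 and Efhc2 at 0.0218 (adjusted p = 0.984 each), and the median of the 6 genes was 0.0256.

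The loss against WT was tested as the difference between the 2 lines' changes. It was called for all 6 genes, and for 96.1% of all genes. The difference was 0.660 for Il1rapl1 (SE 0.168, adjusted p = 0.00160), the largest of the 258 genes on the ratio scale, and 0.612 for Efhc2 (SE 0.136, adjusted p = 0.000522), the 3rd largest. Gabra3 differed by 0.562 (adjusted p = 9.80e-05), L1cam by 0.541 (4.63e-05), Atp2b3 by 0.478 (1.31e-05) and Maob by 0.468 (6.14e-05). Their median was 0.551, against 0.396 over all genes, and the same WT libraries enter this comparison and the one with XistDelPID.

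The third question is how much silencing remains without the PID region. All 6 genes fell in XistDelPID, where 94.6% of all genes were called. Their median change was -0.319, against -0.259 over all genes. All 6 had changes below -0.2, as had 70.9% of all genes.

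In XistDelPID, Il1rapl1 had NoDox ratios of 0.821, 0.773 and 0.706 and Dox ratios of 0.619, 0.160 and 0.227. L1cam had 0.464, 0.426 and 0.511 without doxycycline and 0.150, 0.141 and 0.200 with it. The L1cam replicates were close together on both sides, whereas Il1rapl1 again took most of its reads from Xi in Dox replicate 1. Gabra3 had NoDox ratios of 0.630, 0.655 and 0.589 and Dox ratios of 0.183, 0.0959 and 0.122. Atp2b3 had 0.416, 0.457 and 0.449 without doxycycline and 0.320, 0.0769 and 0.0714 with it. Atp2b3 also kept more Xi reads in Dox replicate 1 than in the others. Maob had NoDox ratios of 0.697, 0.516 and 0.700 and Dox ratios of 0.348, 0.212 and 0.350. Efhc2 had 0.884, 0.760 and 0.840 without doxycycline and 0.746, 0.358 and 0.480 with it, so that its highest Dox library came close to its lowest NoDox library. In all 6 genes, and in 94.2% of the table, the Dox libraries all lay beneath the NoDox ones.

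Gabra3 changed most of the 258 genes in XistDelPID on the ratio scale, by -0.491 (SE 0.0731, adjusted p = 1.38e-05), and ranked 11th from the lowest on a logit scale. Il1rapl1, 10th on the ratio scale and 32nd on the logit scale, changed by -0.431 (SE 0.119, adjusted p = 0.00300) and Maob by -0.335 (SE 0.0580, adjusted p = 6.13e-05). L1cam changed by -0.304 (adjusted p = 0.000410), Efhc2 by -0.300 (adjusted p = 0.00794) and Atp2b3 by -0.284 (adjusted p = 7.94e-05). The calls of Il1rapl1 and Efhc2 depended on single replicates: without replicate 2 they were -0.340 (adjusted p = 0.0741) and -0.249 (0.0837), and without replicate 3 Efhc2 was -0.270 (0.0844). As a share of the WT change, XistDelPID reached 78.8% for L1cam, 78.6% for Gabra3, 69.4% for Atp2b3, 67.1% for Maob, 60.6% for Il1rapl1 and 48.6% for Efhc2. For Il1rapl1 the changes began from different mean NoDox ratios, 0.937 in WT and 0.766 in XistDelPID. The share of Atp2b3 depended on replicate 1, without which it was 97.7%, the highest of the 6, while it was 58.2% without replicate 2 and 54.7% without replicate 3. The median of this share was 68.3% over the 6 genes and 63.9% over the 248 genes with a WT change below -0.2.

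Of the 6 genes, Efhc2 alone was called as silenced less in XistDelPID than in WT, by 0.317 (SE 0.136, adjusted p = 0.0489), while 70.5% of all genes were called. That call was lost without replicate 2 (0.343, adjusted p = 0.114) and without replicate 3 (0.277, adjusted p = 0.246), and with a trended and robust variance prior (adjusted p = 0.0511). Il1rapl1 differed by 0.280 (adjusted p = 0.141), Maob by 0.164 (0.0849), Gabra3 by 0.133 (0.250), Atp2b3 by 0.125 (0.125) and L1cam by 0.0817 (0.435). Il1rapl1 also started lower in XistDelPID, with a mean NoDox ratio of 0.766 against 0.937 in WT. Its mean Dox ratios were 0.335 and 0.227 in the same order. The median difference of the 6, 0.149, was close to that of all genes, 0.145, and the SEs of the 6 ran from 0.0717 for Atp2b3 to 0.168 for Il1rapl1. Without replicate 1, Il1rapl1 was called at 0.304 (adjusted p = 0.000293) and Gabra3 at 0.138 (0.0263), and without replicate 2, Maob at 0.165 (0.0222). With replicate number as a block, Il1rapl1 was called as well as Efhc2. Atp2b3 differed by 0.00877 without replicate 1 and by 0.197 without replicate 3, L1cam by 0.139 without replicate 1 and 0.0412 without replicate 2, and Gabra3 by 0.0836 without replicate 3, none of them called. On a logit scale, which stretches values near 0 and 1, the 5 genes Gabra3, Atp2b3, Maob, L1cam and Efhc2 were called, as were 221 of all 258 genes.

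The 2 deletions were also compared with each other. 5 of the 6 genes were silenced less in XistDelA than in XistDelPID, against 87.6% of all genes, with a median difference of 0.367 against 0.245. L1cam differed by 0.459 (SE 0.0920, adjusted p = 0.000303), the 3rd largest of the 258, Gabra3 by 0.429 (SE 0.103, adjusted p = 0.00132) and Atp2b3 by 0.352 (SE 0.0717, adjusted p = 0.000348). Il1rapl1 differed by 0.381 (SE 0.168, adjusted p = 0.0451) and Maob by 0.304 (SE 0.0820, adjusted p = 0.00295). Efhc2, at 0.295 (SE 0.136, adjusted p = 0.0535), missed the threshold. Il1rapl1 was not called without replicate 2 (0.304, adjusted p = 0.239) or replicate 3 (0.367, adjusted p = 0.169), nor on a logit scale (adjusted p = 0.217). Without replicate 1 Maob was not called (0.232, adjusted p = 0.0544) and Efhc2 was (0.356, adjusted p = 0.00156). Efhc2 was also called with replicate number as a block.

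**Figure D3:**
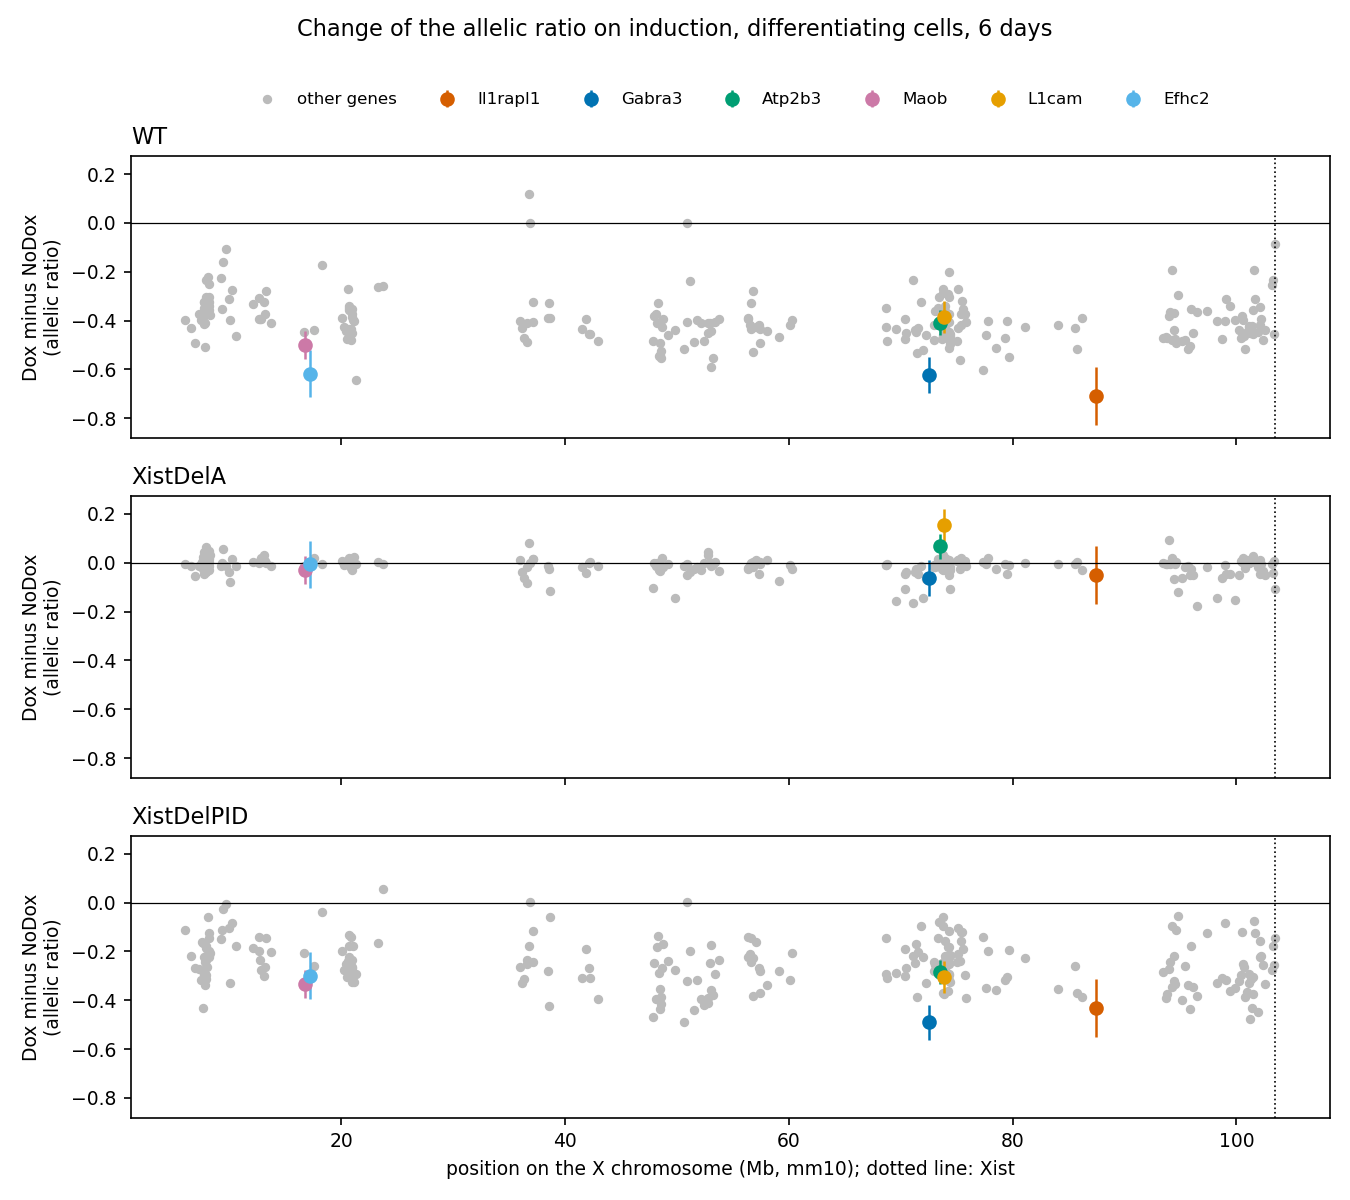
Difference of the mean ratios, Dox minus NoDox, of each gene along the X chromosome (Mb, mm10) in differentiating WT, XistDelA and XistDelPID cells: grey points are the other genes of the table except Xist, coloured points the 6 genes with the SE from limma, and the dotted line marks Xist. Il1rapl1 is the lowest point in WT (-0.710), L1cam the highest in XistDelA (0.155) and Gabra3 the lowest in XistDelPID (-0.491).

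Xist itself served as the check of induction, though its ratio was near 1 before doxycycline. The WT ratio of Xist was 0.994, 0.986 and 0.983 without doxycycline and 0.999 in each Dox library. In XistDelA it was 0.945, 0.738 and 0.950 without and 0.996, 0.999 and 0.991 with doxycycline, and in XistDelPID it had means of 0.994 and 0.999. The low XistDelA NoDox library is replicate 2, which also stood apart for L1cam. Because the ratio says which allele Xist came from and not how much was made, induction strength could not be compared between lines here. The study reports less Xist RNA in its A-repeat deletion, so a lower Xist level and the missing repeat cannot be told apart.

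Of the 36 SDs of the 6 genes in the 6 differentiating groups, 31 were above the median SD of all genes in the same group. In WT Dox libraries the SD of Il1rapl1, 0.272, was the 2nd largest of the 258 genes and that of Efhc2, 0.192, the 4th largest, against a median SD of 0.0250. In XistDelPID Dox libraries they ranked 2nd (0.248) and 3rd (0.198), with Atp2b3 5th (0.142) and a median of 0.0348. Gabra3 was the opposite in WT Dox, with the 249th largest SD, and ranked 2nd in XistDelA Dox (0.208). In the WT and XistDelPID Dox groups, replicate 1 stood furthest from the other libraries for Il1rapl1 and Efhc2. It was the highest library in each of the 6 differentiating groups for both genes. The same held for 22 of the 258 genes (8.53%), while neither replicate 2 nor replicate 3 was highest in all 6 groups for any gene. Of 33 other X-linked genes linked to neurons or to disorders of brain development, 3 were among them, close to the share of all genes. This pattern was looked for after the values were seen. Without replicate 1, Il1rapl1 changed by -0.849 and Efhc2 by -0.714 in WT, both called.

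Cells kept undifferentiated for the same 6 days gave 1 NoDox and 1 Dox library per line, so these values carry no test. In WT the 6 genes changed by a median of -0.518, against -0.407 over all genes. All 6 were below -0.2, as were 95.3% of all genes. In XistDelPID the median was -0.294 against -0.235, and 5 of the 6 were below -0.2, where 62.4% of all genes were. In XistDelA the median was -0.0165 against -0.00957, and Il1rapl1 and L1cam were below -0.05, as were 17.4% of all genes.

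Undifferentiated Il1rapl1 went from 0.848 to 0.0661 in WT, from 0.843 to 0.792 in XistDelA and from 0.614 to 0.234 in XistDelPID. Its WT Dox ratio was thus near those of differentiating replicates 2 and 3 and far from that of replicate 1. L1cam went from 0.446 to 0.00905, from 0.535 to 0.472 and from 0.400 to 0.110 in the same order of lines. Gabra3 went from 0.646 to 0.0286, from 0.655 to 0.614 and from 0.632 to 0.188. Atp2b3 stood at 0.357 and 0 in WT, at 0.393 and 0.489 in XistDelA, and at 0.362 and 0.133 in XistDelPID, so that in XistDelA the Dox ratio was again the higher. Maob had 0.559 and 0.0833, 0.634 and 0.765, and 0.575 and 0.511 in the 3 lines. Its change of -0.0644 in XistDelPID was the weakest of the 6 and ranked 244th from the lowest of 258, unlike the -0.335 of differentiating cells. Efhc2 stood at 0.803 and 0.243 in WT, at 0.799 and 0.807 in XistDelA, and at 0.836 and 0.537 in XistDelPID.

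C7H8 shows the first 24 hours of Xist on the Cast chromosome. 4 of the 5 listed genes were called silenced, where 78.0% of the 464 genes were. Their median change was -0.143, against -0.162 over all genes. L1cam had NoDox ratios of 0.550 and 0.500 and Dox ratios of 0.288 and 0.171, a change of -0.295 (SE 0.0513, adjusted p = 0.0147). Atp2b3 had 0.458 and 0.367 without and 0.225 and 0.0833 with doxycycline, a change of -0.259 (SE 0.0674, adjusted p = 0.0373). These 2 genes, whose alleles were nearest to balance, changed most.

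Gabra3 had NoDox ratios of 0.219 and 0.210 in C7H8 and Dox ratios of 0.0458 and 0.0979, a change of -0.143 (SE 0.0231, adjusted p = 0.0124). Efhc2 had 0.134 and 0.112 without and 0.0481 and 0.0606 with doxycycline, a change of -0.0689 (SE 0.0141, adjusted p = 0.0212). That call of Efhc2 was lost with replicate number as a block. Il1rapl1 had 0.00726 and 0.00631 without and 0.0108 and 0.00913 with it, a difference of 0.00320 (SE 0.00984, adjusted p = 0.785). With so few reads from the Cast allele at the start, the C7H8 ratio of Il1rapl1 had almost no room to fall, and it can say nothing about silencing of that allele. The time of induction and the strain of Xi both differ from the 6-day lines, so changes on induction were not compared between the tables. On a logit scale Atp2b3 was not called in C7H8 (adjusted p = 0.0671).

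The genes on either side are set beside the 6. Changes are on the ratio scale, where a gene that starts high has further to fall. Il1rapl1 lies between Nr0b1, a nuclear receptor gene of the stem cell network, and Pola1, which encodes the catalytic subunit of DNA polymerase alpha, 551 kb and 5.19 Mb away. Their WT changes were -0.388 and -0.473, against -0.710 for Il1rapl1. Nr0b1 and Pola1 started at mean ratios of 0.414 and 0.533 and ended at 0.0257 and 0.0601. Il1rapl1 started at 0.937 and ended at 0.227 (0.0696 without replicate 1). Gabra3 (-0.624) lies between Gabre (-0.459), another GABA-A receptor subunit gene, and Nsdhl (-0.418), a gene of cholesterol synthesis. Atp2b3 (-0.409) lies between Haus7 (-0.302), of the augmin complex of the spindle, and Slc6a8 (-0.474), the creatine transporter gene. These differences between neighbours were not tested. L1cam (-0.385) had a smaller change than both Pdzd4 (-0.439) and Arhgap4 (-0.410). Maob (-0.499) lies between Maoa (-0.445), which encodes the sister enzyme, and Efhc2 (-0.618), whose other neighbour is Fundc1 (-0.438), a mitophagy receptor gene. All 10 of these neighbours outside the list were called silenced in WT and in XistDelPID and none in XistDelA, where 97.7%, 94.6% and 1.16% of all genes were. In XistDelPID their changes ran from -0.387 for Nr0b1 to -0.0796 for Haus7.

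Across the 24 libraries of the 6-day table, the genes closest to each of the 6 in ratio were found by Pearson correlation. These libraries share lines and treatments, so the drop with doxycycline enters each correlation, to an extent that was not tested. The correlation was highest with Maged1 (0.939) and 1810030O07Rik (0.936) for Il1rapl1, and with Dmd (0.979) and Pcyt1b (0.975) for Gabra3. It was highest with Clcn5 (0.963) and Plxna3 (0.962) for Atp2b3, and with Zfp182 (0.955) and Mpp1 (0.954) for Maob. L1cam was closest to Med12 (0.931), and Efhc2 to Uba1 and Htatsf1 (0.948 each). Plxna3 lies within 2 Mb of Atp2b3, the gene it matches. Among the 6 themselves the correlation ran from 0.814 for L1cam and Efhc2 to 0.932 for Il1rapl1 and Efhc2.

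A wider list of 45 X-linked genes linked to neurons or to disorders of brain development puts the 6 in context. It also takes in genes of general function such as Pola1. Of the list, 33 were in the 6-day table, at a median of 12.5 RPKM. All 33 were called silenced in WT, near the 97.7% of all genes, with a median change of -0.436 against -0.408. All 33 were called in XistDelPID, near the 94.6% of all genes, with a median of -0.289 against -0.259. By limma 0 were called in XistDelA, where 1.16% of all genes were. Without replicate 1, 3 of the 33 were called, and leaving out each replicate in turn gave 0 to 6 of all 258 genes. The most silenced in WT were Zc4h2, a zinc finger gene, with a mean ratio of 0.535 without and 0.0172 with doxycycline, Dlg3, a postsynaptic scaffold gene, with 0.548 and 0.0308, and Kcnd1, a potassium channel gene, with 0.564 and 0.0557. The least silenced were Atp6ap2, a proton pump accessory gene, with 0.509 and 0.201, Cul4b, a ubiquitin ligase scaffold gene, with 0.434 and 0.105, and Fmr1, the fragile X gene, with 0.493 and 0.144.

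In the direct comparison of XistDelPID with WT, 29 of the 33 were called as silenced less, against 70.5% of all genes. Without replicate 3 the counts were 18 of the 33 and 137 of all 258. Fmr1 changed by -0.349 in WT and -0.144 in XistDelPID, a difference of 0.205 (SE 0.0155, adjusted p = 1.79e-07), and Atp6ap2 by -0.308 and -0.142 (0.166, SE 0.0188, adjusted p = 5.63e-06). Both are well expressed, at 64.3 and 37.2 RPKM, and their replicates lie close together. Cul4b went the other way, from -0.329 to -0.423, with a difference of -0.0937 that missed the threshold (adjusted p = 0.125).

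Promoters are shown because genes that fell together differed in what stands at their start. RefSeq promoter sequences of GRCm38, from 250 bases before to 50 bases after a start, were matched for 4 of the 6 genes. For Il1rapl1, Gabra3 and Efhc2 these sequences lie upstream of the deposited gene spans given above, which end short of the RefSeq starts. Atp2b3 and Maob had no entry. The letters CG, which read the same on both strands, are in capitals, and 94.6% of the 32851 promoters hold at least 1. All 4 are on the minus strand of the X chromosome, and for Gabra3 and L1cam the first of 2 listed starts is shown.
Il1rapl1, chrX:88115899-88116198: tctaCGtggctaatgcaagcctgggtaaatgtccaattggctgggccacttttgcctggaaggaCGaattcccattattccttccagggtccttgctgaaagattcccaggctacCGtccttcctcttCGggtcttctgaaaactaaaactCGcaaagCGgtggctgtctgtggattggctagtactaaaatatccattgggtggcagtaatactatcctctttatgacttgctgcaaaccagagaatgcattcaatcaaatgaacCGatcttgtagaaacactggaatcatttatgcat
Gabra3, chrX:72656870-72657169: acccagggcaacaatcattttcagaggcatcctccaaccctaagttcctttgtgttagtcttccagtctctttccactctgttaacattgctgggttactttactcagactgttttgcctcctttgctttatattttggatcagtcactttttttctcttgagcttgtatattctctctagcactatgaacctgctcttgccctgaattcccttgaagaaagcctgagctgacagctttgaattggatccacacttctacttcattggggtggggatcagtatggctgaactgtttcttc
L1cam, chrX:73880741-73881040: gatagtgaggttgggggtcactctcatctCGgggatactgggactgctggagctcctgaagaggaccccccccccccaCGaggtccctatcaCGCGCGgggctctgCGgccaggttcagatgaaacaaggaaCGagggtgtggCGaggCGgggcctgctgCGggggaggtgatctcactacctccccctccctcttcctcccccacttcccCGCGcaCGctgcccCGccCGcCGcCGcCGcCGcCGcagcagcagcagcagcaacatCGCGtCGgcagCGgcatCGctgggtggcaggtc
Efhc2, chrX:17319892-17320191: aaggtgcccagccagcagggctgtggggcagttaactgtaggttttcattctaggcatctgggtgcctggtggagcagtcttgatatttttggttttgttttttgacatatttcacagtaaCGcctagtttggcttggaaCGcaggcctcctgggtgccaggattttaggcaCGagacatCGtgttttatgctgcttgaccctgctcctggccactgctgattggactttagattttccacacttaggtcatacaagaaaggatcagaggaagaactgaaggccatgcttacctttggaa
L1cam has 25 CG, a number that 18.4% of all promoters reach, Il1rapl1 has 7 (52.1%), Efhc2 has 4 (68.6%) and Gabra3 has none. L1cam, with the CG-rich promoter, and Gabra3, with none, were both called silenced in WT and XistDelPID, as were 97.7% and 94.6% of all genes. Their mean WT Dox ratios were 0.0479 (0.0153 without replicate 1) and 0.0149. Whether CG content goes with silencing was not tested. The median over the 262 promoters of genes in the 6-day table was 15.5 CG.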

How the data were processed

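Allelic ratios of chromatin RNA-seq were taken as the authors deposited them, as a fraction between 0 and 1 per gene and library. The authors aligned reads with STAR to mm10 with SNP positions masked, split them by strain with SNPsplit, counted them with featureCounts and kept genes covered by 10 or more SNP-bearing reads. The deposited expression column is in RPKM, of an unnamed library. Depth is unknown, so no interval could be given, and the feeder fibroblasts named in the labels cannot be separated in these tables.

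Ratios were fitted without transformation in limma 3.58.1 (R 4.3.3), with 1 coefficient per group over all 24 libraries of the 6-day table, and with the 4 C7H8 libraries on their own. Moderated two-sided tests were adjusted by Benjamini-Hochberg over all 258 or 464 genes, with a threshold of 0.05. The fit was tested on simulated data. No library pair was identical and no ratio was missing. The labels conflict on induction: titles and time course give 6 days (144 h), while the growth protocol of every sample gives 24 hours. Group times follow the time course.

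The 6 genes and the wider neuronal list were chosen with earlier results of these data known. Other genes were named by rule: the nearest listed gene on each side, up to 2 of the most correlated genes, and the 3 most and 3 least silenced of the neuronal list. Alternatives tried were a logit scale (offset 0.01), the 18 differentiating libraries alone, a replicate block, a trended robust prior, filters on NoDox ratio (0.2 to 0.8) and RPKM (at least 1), each line alone, the mean in place of the median, and leaving out each replicate. Deposited starts were printed 1 base higher, since 119 of 246 genes matched RefSeq starts that way and 8 without the shift.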

Additional observations from a re-analysis of the deposited data

Results flagged for a closer look

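These results were picked out because the change of a gene on induction differed between 2 lines when the difference itself was tested in limma over all genes. Each line is 1 clone, so deletion and clone cannot be told apart.

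Between XistDelA and WT the difference was 0.660 for Il1rapl1, 0.562 for Gabra3, 0.478 for Atp2b3, 0.468 for Maob, 0.541 for L1cam and 0.612 for Efhc2. Between XistDelPID and WT it was 0.317 for Efhc2. Between XistDelA and XistDelPID it was 0.381 for Il1rapl1, 0.429 for Gabra3, 0.352 for Atp2b3, 0.304 for Maob and 0.459 for L1cam. Of these calls, Efhc2 between XistDelPID and WT and Il1rapl1 and Maob between XistDelA and XistDelPID were lost when single replicates were left out. Single libraries were not tested for standing apart from their groups of 3.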

How the results depend on the processing

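Depth is unknown, so counting error could not be set apart from other spread, and 4 of the 6 genes fell below an RPKM of 1. Where a value moved, the cause was not tested unless fewer genes or another scale made it move.

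On the logit scale the medians of the 6 genes are in other units: -3.17 in WT, -0.0432 in XistDelA, -1.54 in XistDelPID, 3.47 for XistDelA minus WT, 1.64 for XistDelPID minus WT, 1.70 for XistDelA minus XistDelPID, -1.23 in C7H8 and 0.615 for the balance. There 5 of the 6 genes (221 of all 258) were called for XistDelPID minus WT, against 1 (182), and Efhc2 in XistDelA reversed to 0.0298.

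For XistDelPID minus WT, 0 of the 6 were called with a trended and robust prior (181 of all 258), and 0 of the 4 whose NoDox ratio lay between 0.2 and 0.8 (182 of 252). That filter gave medians of -0.454 in WT, 0.0187 in XistDelA (reversed) and -0.259 in C7H8. At an RPKM of at least 1 only L1cam and Efhc2 remained: 2 called in WT (239 of the 244 genes kept), 2 in XistDelPID (231), 2 for XistDelA minus WT (237) and 1 for XistDelA minus XistDelPID (217), with a median of 0.0750 in XistDelA (reversed). The mean in place of the median gave 0.0126 in XistDelA (reversed). Over the C7H8 genes also in the 6-day table, 202 of 254 were called.

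Leaving out each replicate in turn, the XistDelA median ranged from -0.0501 to 0.0256, Maob there from -0.0949 to 0.0293 and Efhc2 from -0.0253 to 0.0218. The genes called silenced in XistDelA ranged from 0 to 6 of all, and the 6 genes called for XistDelPID minus WT from 0 to 3 (137 to 177 of all). The balance against 0.5 had medians of 0.117 in WT, 0.199 in XistDelA and 0.131 in XistDelPID (2 called, and 65 of all genes) when each line was fitted on its own.

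Replicate number as a block gave 5 genes of all called in XistDelA, against 3, and 2 of the 6 called for XistDelPID minus WT (194 of all 258), against 1, with Il1rapl1 gained. Efhc2 was gained for XistDelA minus XistDelPID (230 of 258). In C7H8 it gave 3 of the 5 genes (336 of 464), against 4, with Efhc2 lost. Deviations of NoDox and Dox libraries of the same number correlated above 0.1 in 5 of 9 pairs, short of all 9, so the samples were not treated as matched. As a hint from the data, 12 of 18 libraries were closest to their own number, the 3 XistDelPID pairs were all above 0.1, and replicate 1 was highest in all 6 groups for 22 genes. The medians of the 6 genes in WT, XistDelPID and the 3 line differences kept their direction under all alternatives tried.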
